A study of Danio rerio with 8 samples.

Results

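The loci described here are zebrafish loci that were catalogued as long non-coding RNA (lncRNA). Each was annotated with a single spliced model of 2 exons, and therefore with a single intron. They were taken from the catalogue deposited with a ribosome profiling study by a rule on the models alone. RefSeq models (identifiers beginning with NR_ or NM_) were set aside, and a locus was kept when exactly 1 transcript remained and that transcript had exactly 2 exon records. The rule gave 366 of the 1014 loci in the catalogue. Of the other loci, 315 had 1 transcript of 3 or more exons, 95 had 1 transcript of a single exon, 237 had 2 or more transcripts and 1 held RefSeq models only. The study itself sequenced ribosome-protected RNA fragments from pooled whole embryos of TL/AB wild-type zebrafish. There was 1 library for each of 8 stages: 2 to 4 cells, 256 cells, 1k cells, Dome, Shield, Bud, 28 hours and 5 days after fertilization. No value of any library entered the comparisons below, so no stage was compared with another and the depth of these libraries does not enter them. The sequencing depth behind the annotations that supplied the models was not analysed here. The measurements are lengths computed from exon coordinates on the Zv9 build, with first and last exon assigned by the strand of the model.

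An lncRNA of this kind is transcribed and capped like a messenger RNA, the spliceosome joins its exons, and the last exon is given a poly(A) tail. In a 2-exon model the first exon carries the capped start, the last exon carries the end, and every splicing event of the RNA happens at the single intron. Long non-coding RNAs as a class are known for having fewer exons than messenger RNAs, and in vertebrate embryos for low and often tissue-restricted expression. The models came from a pair of earlier zebrafish annotations, which are recognised by the start of the identifier. Names that begin with Zv9_ come from Pauli et al. and names that begin with linc- from Ulitsky et al., per the authors' deposited description. The Zv9_ prefix also covers other developmental transcripts of the first annotation, which could not be separated from its lncRNAs here.

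Most of these loci came from Zv9_ models, which supplied 306, against 60 from linc- models. Among loci with a single transcript, the 2-exon form made up 306 of 442 Zv9_ loci (69.2%) but 60 of 334 linc- loci (18.0%). The rest of the Zv9_ loci with a single transcript, 136 in all, had 3 or more exons, and none had a single exon. Of the linc- loci, 179 had 3 or more exons and 95 had 1. Every value over all 366 loci is therefore mainly a value of Zv9_ models, and the main comparisons are also given by source. The loci form a fixed list with 1 structure each, and they are not replicates of a condition. No test was run across them, and spread is given as the quartiles over loci.

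At 9 of the 366 loci the single model stood beside RefSeq models that the rule ignored. At 7 of these the RefSeq models were microRNA precursors. The eighth was XLOC_010664, where Zv9_00056404 on chromosome 25 (344421 to 345653, minus strand) lies within cyp7a1, the gene for the rate-limiting enzyme of bile acid synthesis. Its exons measured 137 and 995 nt around an intron of 101 bp, and cyp7a1, with 7 exons, has an intron with the same 2 ends. Of the last exon, 33 nt overlapped cyp7a1 exons, and of the first exon 73 nt. This model thus shares a splice junction with a coding transcript. The ninth was XLOC_001288 on chromosome 10, where linc-epb4.1l4_1 had a first exon of 494 nt, an intron of 4566 bp and a last exon of 5460 nt. The RefSeq lncRNA of that locus, linc-epb41l4a, has 3 exons and contains the same intron. For this locus the 2-exon form is a property of 1 annotation and not of both.

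Taken over all 366 loci, the first exon had a median of 187.5 nt (quartiles 91.2 and 406), the intron 2400 bp (578 and 10211) and the last exon 397 nt (160 and 976). The exons together came to a median spliced length of 656.5 nt (336 and 1476) within a span of 3935.5 bp (1915 and 11029). A spliced length under 200 nt was found at 27 loci (7.38%), all of them Zv9_ models. The intron thus filled a median of 76.6% of the span. The quartiles of that share were 34.5% and 95.0%, so compact loci that are mostly exon and wide loci that are almost wholly intron were both common. An intron close to the Zv9_ median did not fix the exons beside it. XLOC_008139 on chromosome 20, whose model Zv9_00047019 was 1 of the 3 nearest to that median, had a first exon of 315 nt, an intron of 2498 bp and a last exon of 894 nt. The other 2, at XLOC_005031 and XLOC_012197, had exons of 33 and 318 nt and of 60 and 112 nt. The 3 nearest to the linc- median included linc-sec23b_1 at XLOC_013354 on chromosome 6, named after a subunit of the COPII vesicle coat, with 239 nt, 2126 bp and 363 nt.

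**Figure D1:**
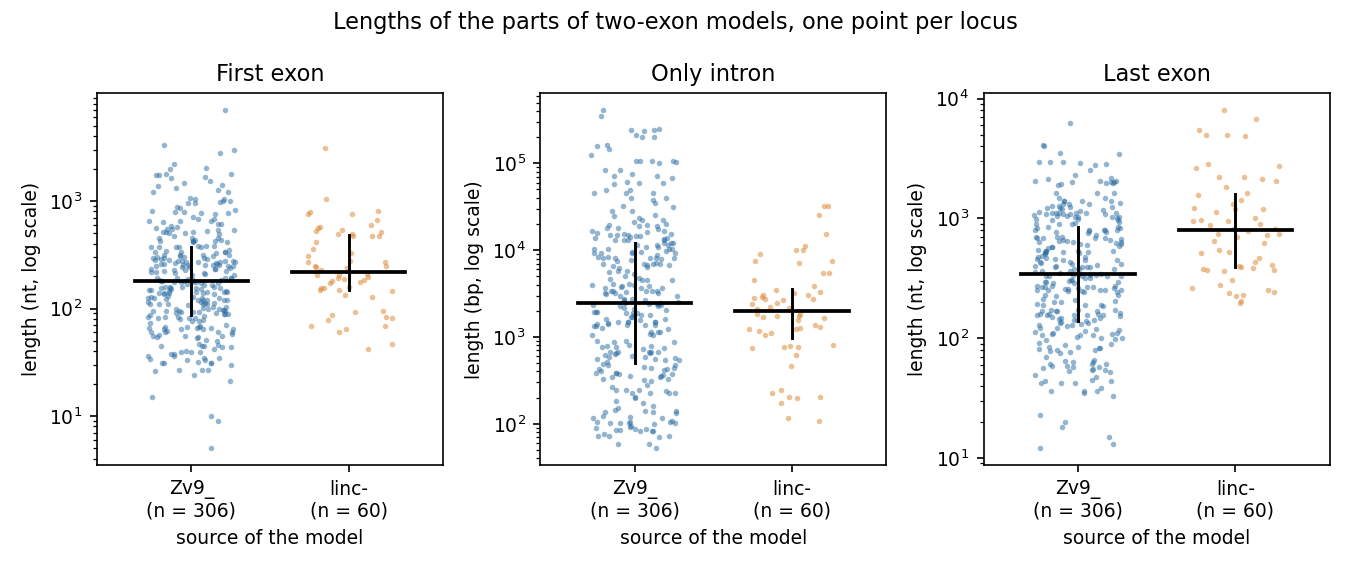
Lengths of the first exon (nt), the only intron (bp) and the last exon (nt) on log axes, 1 point per locus, for 306 Zv9_ and 60 linc- models. Horizontal bars are medians and vertical bars join the quartiles. The intron points of Zv9_ models spread over a wider range than those of linc- models, and the last exon of linc- models lies higher, with a median of 801 nt against 342.5 nt for Zv9_ models placed left of it.

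The intron was the most variable part. It ranged from 52 to 406569 bp, and the upper quartile was more than 10 times the lower. Introns shorter than 200 bp occurred at 46 loci (12.6%), introns of 1000 to below 10000 bp at 151 (41.3%), and introns of 10000 bp or more at 94 (25.7%). At 118 loci (32.2%) the intron was shorter than the exons together, and at 126 (34.4%) it was more than 10 times as long. Within the list, all the extremes at both ends were Zv9_ models. The 19 introns under 100 bp and the 29 of 50000 bp or more were all found among the 306 Zv9_ loci, with none among the 60 linc- loci. Those 29 loci, 7.92% of the list, held 68.6% of the 6203903 bp of intron summed over all 366. Introns of such sizes were not absent from linc- models outside the list. Of 179 single-transcript linc- loci with 3 or more exons, 7 had a first intron under 100 bp and 1 had an intron of 50000 bp or more at any position. At any position, introns under 100 bp were more common than the first introns show. The shortest intron of each of these 179 loci had a lower quartile of 90.5 bp. Over the 136 Zv9_ loci of the same class that quartile was 179 bp.

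The longest intron, 406569 bp, belonged to Zv9_00013344 at XLOC_013169 on chromosome 5 (54233151 to 54641275, minus strand), with exons of 432 and 1124 nt. The next was Zv9_00009078 at XLOC_011970 on chromosome 4 (57625528 to 57980569, plus strand), with 353258 bp between exons of 1003 and 781 nt. Zv9_00008864 at XLOC_011951, also on chromosome 4 (33831730 to 34083045, plus strand), had 251032 bp between exons of only 54 and 230 nt. Zv9_00021018 at XLOC_015315 on chromosome 8 and Zv9_00019078 at XLOC_014738 on chromosome 7 followed with 244564 and 241680 bp, behind first exons of 42 and 40 nt. The intron filled 99.5% to 99.9% of the span at these 5 loci. A wide locus could still give one of the shortest RNAs of the list: Zv9_00033229 at XLOC_003456 on chromosome 14 measured 166 nt spliced, around an intron of 106489 bp. Over the 29 loci with an intron of 50000 bp or more, the median first exon was 128 nt, the median last exon 253 nt and the median spliced length 428 nt. An exon under 50 nt was present at 8 of these 29. Chromosome 4 held 6 of the 29 (20.7%), which are all Zv9_ models. It held 31 of all 366 loci (8.47%), and 29 of the 306 Zv9_ loci. Of those 6, 5 were spread from 33831730 to 57980569, bounds that were taken from these loci themselves. Other loci in that interval were not counted.

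At the short end, Zv9_00019219 at XLOC_014777 on chromosome 7 had an intron of 52 bp between exons of 31 and 1475 nt. Zv9_00052508 at XLOC_009705 on chromosome 23 and Zv9_00009213 at XLOC_011998 on chromosome 4 each had one of 59 bp. The exons of the chromosome 23 model were long, at 1457 and 1024 nt, and those of the chromosome 4 model short, at 60 and 158 nt, so a short intron went with either. Zv9_00050673 at XLOC_009204 on chromosome 22 had 71 bp and Zv9_00048327 at XLOC_008536 on chromosome 21 had 73 bp. The 19 loci with an intron under 100 bp had a median first exon of 217 nt and a median last exon of 274 nt. The last exon was the longer one in 9 of the 19, all Zv9_ models, against 199 of all 306 Zv9_ loci (65.0%) and 250 of all 366. The shortest linc- introns of the list were longer, at 107 bp in linc-snx30_1 on chromosome 10 and 117 bp in linc-crabp2a_2 on chromosome 16. Snx30 is a sorting nexin of endosomes, and crabp2a encodes a carrier of retinoic acid, a signal that patterns the embryo.

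**Figure D2:**
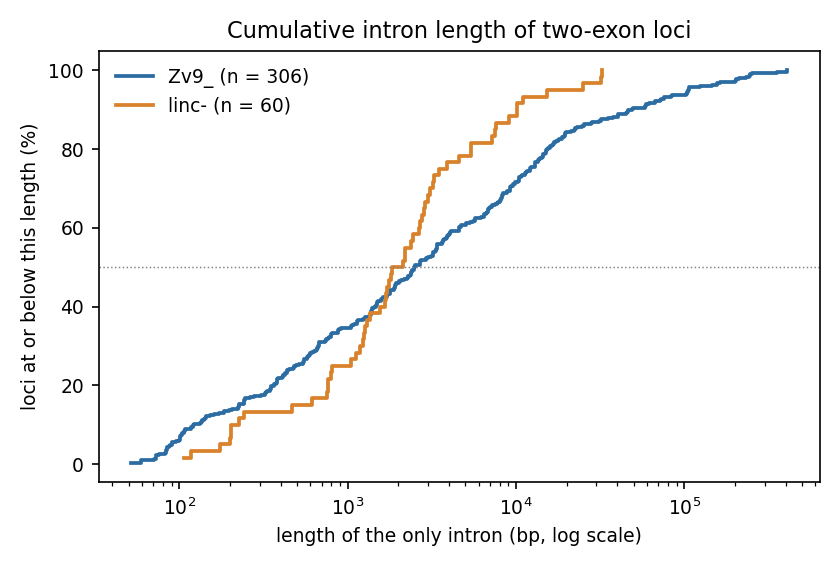
Share of loci (%) whose only intron is at or below a given length (bp, log axis), for 306 Zv9_ and 60 linc- loci. The dotted line marks 50%. The curves cross below it, and the medians were 2490 bp for Zv9_ and 1975.5 bp for linc- loci. The Zv9_ curve starts earlier, at 52 bp, and ends later, at 406569 bp.

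The last exon was the longer one in 250 of the 366 loci (68.3%), and no locus had exons of equal length. Within a locus the last exon was a median of 2.14 times as long as the first (quartiles 0.779 and 5.80). It was more than 2 times as long at 187 loci (51.1%) and more than 10 times as long at 50 (13.7%). The opposite order was less frequent but not rare: the first exon was more than 2 times the last at 68 loci (18.6%) and more than 10 times at 10 (2.73%), all 10 of them Zv9_ models. The widest ratio was found in Zv9_00030283 at XLOC_002627 on chromosome 13, with a first exon of 45 nt and a last exon of 4111 nt, a ratio of 91.4. Zv9_00028216 at XLOC_002113 on chromosome 12 had 26 and 2048 nt. Among linc- models the widest ratio, 52.9, was that of linc-tom1_1 at XLOC_011071 on chromosome 3, with 94 and 4977 nt. At the other end, Zv9_00027123 at XLOC_001864 on chromosome 11 (5991571 to 5998933, minus strand) had a first exon of 6954 nt and a last exon of 57 nt. It had the longest first exon of the list and, at 7011 nt, the longest spliced Zv9_ model.

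Some terminal exons were only a few bases long. The first exon was under 50 nt at 39 loci and the last exon at 20, and since no locus had both, 59 loci (16.1%) had an exon of that size. The shortest first exon, 5 nt, was that of Zv9_00022274 at XLOC_015684 on chromosome 9, followed by 9 nt in Zv9_00057549 at XLOC_000140 on an unplaced scaffold and 10 nt in Zv9_00046997 at XLOC_008133 on chromosome 20. The shortest last exons were 12 nt in Zv9_00004900 at XLOC_007442 on chromosome 2 and 13 nt in Zv9_00006444 at XLOC_011231 on chromosome 3. Of the 59 loci, 57 were Zv9_ and 2 linc-. Both linc- loci were short in the first exon, at 42 nt in linc-phf2_1 and 47 nt in the other. A splice junction placed so close to the end of a model rests on few bases beyond it, and the read support of these junctions was not analysed here.

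**Figure D3:**
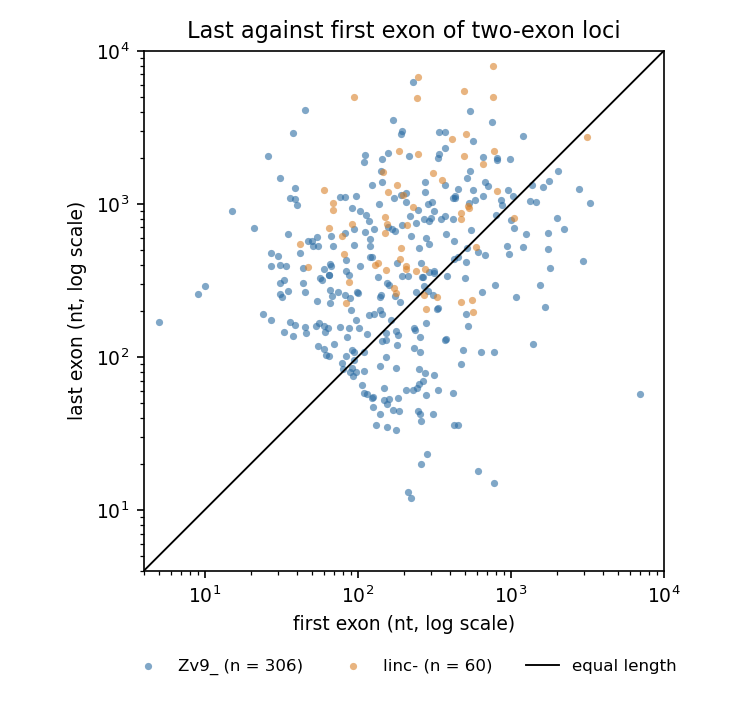
Last exon against first exon (nt, both axes log), 1 point per locus, for 306 Zv9_ and 60 linc- loci. The line marks equal length. Of the points, 250 lie above the line and 116 below, and 107 of those below are Zv9_ loci. The empty lower left corner goes with the shortest spliced length of 163 nt.

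The lengths of the 3 parts were only weakly related to each other. Spearman's rank correlation between first and last exon was 0.23 over all 366 loci, 0.20 over the 306 Zv9_ loci and 0.27 over the 60 linc- loci. These are descriptions across loci of 1 catalogue, with no test. Exon lengths are also tied by the shortest models a source holds, which measured 163 nt among all Zv9_ transcripts and 298 nt among all linc- transcripts, so that no locus could have 2 very short exons. The part of that limit in the correlation was not tested. Without the 59 loci that have an exon under 50 nt the correlation was 0.34 over 307 loci. Those loci were left out by the same lengths that are correlated, so this value does not measure that part. With the loci ranked by first exon into 4 groups of 91 or 92, the median last exon measured 319 nt in the lowest group, 263 nt in the second, 373 nt in the next and 827.5 nt in the highest. The corresponding medians within sources, each ranked again, were 318, 196, 331.5 and 687 nt in Zv9_ loci and 618, 644, 873 and 1829 nt in linc- loci. Of the 89 last exons of 1000 nt or more, 41 followed a first exon of 414 nt or more, although only 92 of all 366 loci had one that long. The other 48 followed a shorter one, so a long last exon did not need a long first one. The ratio ran the other way, with the last exon longer at 90 of 92 loci in the lowest group and at 42 of 92 in the highest, as ranking by the first exon itself tends to give.

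Intron length went weakly with shorter exons. The rank correlation was -0.15 between the intron and either exon, and -0.20 between the intron and the spliced length. The sign was the same in both sources, at -0.18 for Zv9_ and -0.15 for linc- loci. Over 4 such groups ranked by intron length, the median spliced length was 847 nt for introns of 52 to 577 bp, 794 nt for 582 to 2394 bp, 552 nt for 2406 to 10124 bp and 509.5 nt for 10240 bp or more. The fall over all loci was not steady in either source. Ranked within sources, the medians were 722, 776, 427.5 and 486 nt in Zv9_ loci and 1497, 766, 793 and 1075 nt in the 4 groups of 15 linc- loci. Over all loci the median first exon of the groups was 244, 239, 167 and 172 nt, and the median last exon 520.5, 529, 373 and 337 nt. Which exon was longer did not follow the intron in 1 direction. The last exon was longer at 62.0% of loci in the lowest group, 74.7% in the second, 78.0% in the next and 58.7% in the highest, and the rank correlation between intron length and the exon ratio was 0.0064. The number of linc- loci in the groups also moved, at 9, 25, 21 and 5 in the same order. Within Zv9_ loci alone, ranked again, the shares were 57.1%, 76.3%, 67.1% and 59.7%, again lowest at both ends. Within linc- loci they were 86.7%, 73.3%, 93.3% and 86.7%, lowest in the second group.

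**Figure D4:**
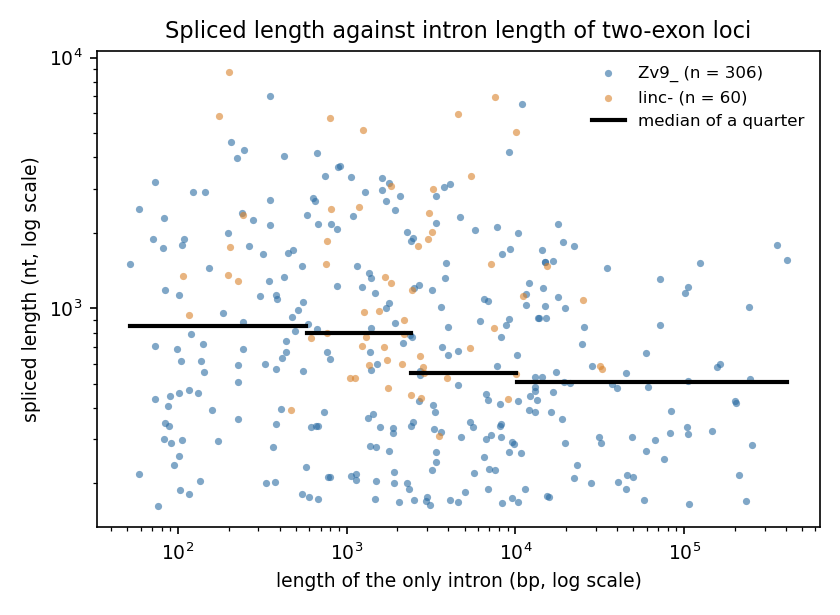
Spliced length (nt) against the length of the only intron (bp), both on log axes, 1 point per locus for 306 Zv9_ and 60 linc- loci. Black lines give the median spliced length over both sources in each of 4 groups ranked by intron length, from 847 nt in the lowest to 509.5 nt in the highest, and the points around each line spread far more widely than the lines differ.

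The sources differed most in the last exon. Its median was 342.5 nt in Zv9_ loci (quartiles 139 and 842) and 801 nt in linc- loci (389 and 1588), a ratio of 0.428. In 28.8% of all pairs of 1 Zv9_ and 1 linc- locus the Zv9_ last exon was the longer. No linc- locus of the list had a last exon under 197 nt, a length found in linc-zfand5a_1, whereas 106 of 306 Zv9_ loci (34.6%) fell below it. Shorter ones occurred in linc- models outside the list. The shortest measured 105 nt among 179 single-transcript linc- loci with 3 or more exons. Among all 387 linc- transcripts of 2 or more exons it measured 24 nt. First exons were closer, with medians of 178.5 nt in Zv9_ and 219 nt in linc- loci (ratio 0.815, Zv9_ longer in 42.9% of pairs), and their quartiles overlapped broadly. The last exon was the longer one at 199 of 306 Zv9_ loci (65.0%) and at 51 of 60 linc- loci (85.0%), and the median ratio of last to first exon was 1.86 in Zv9_ against 3.76 in linc- loci. Spliced models measured a median of 584.5 nt in Zv9_ and 1024 nt in linc- loci. The longest model of the list, 8732 nt, was linc-zgc:158316_1 on chromosome 9, followed by the Zv9_ model of 7011 nt above and by linc-tnw_1 on chromosome 2 with 6962 nt. The name tnw is a synonym of tnn, the gene of an extracellular matrix protein of the tenascin family.

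For the intron, the sources differed in width more than in level. The medians were 2490 bp in Zv9_ and 1975.5 bp in linc- loci (ratio 1.26, Zv9_ longer in 54.4% of pairs). That ratio was 1.03 when every locus with any 2-exon transcript was used and 1.47 without the loci that hold RefSeq models. The upper quartile was 24.3 times the lower in Zv9_ loci and 3.67 times in linc- loci. Introns beyond the longest linc- intron, 32556 bp in linc-rhoad_1 on chromosome 8, occurred at 38 Zv9_ loci (12.4%), and introns shorter than the shortest linc- intron at 26 (8.50%). Zv9_ loci were 82.9% intron in the median, and linc- loci 62.4%.

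Because the shortest models are all Zv9_, the sources were also compared after restriction to the range of spliced length of the linc- loci, 310 to 8732 nt, a step chosen after the lengths had been seen. It kept 226 of 306 Zv9_ loci. The median first exon was then 257 nt in Zv9_ against 219 nt in linc- loci (ratio 1.17, the opposite direction), but the Zv9_ exon was the longer in 51.0% of pairs, close to an even split. The last exon was still shorter in Zv9_ loci, at 541 nt against 801 nt in linc- loci, by a smaller margin (ratio 0.675, Zv9_ longer in 38.6% of pairs). It was the longer exon at 159 of the 226 Zv9_ loci (70.4%). The intron ratio was 1.12, with medians of 2212.5 bp in Zv9_ and 1975.5 bp in linc- loci. The intron then filled a median of 67.2% of the span in Zv9_ and 62.4% in linc- loci. That share was larger in the Zv9_ locus in 54.5% of pairs. Spliced length is the sum of the exons compared, so this restriction acts on them directly.

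The 2-exon loci were set against the 315 single-transcript loci with 3 or more exons to ask whether the only intron resembles a first intron. Over both sources it did in the median, at 2400 bp in 2-exon loci against 2229 bp for the first intron of the others (ratio 1.08). The median of their last intron was 2356 bp. With geometric means the only intron measured 2486 bp against 1758 bp for first introns (ratio 1.41), so the likeness in level held for the median only. By source the direction differed. In Zv9_ models the only intron had a median of 2490 bp against 3388 bp for first introns (n = 306 and 136, ratio 0.735), and in linc- models 1975.5 against 1637 bp (n = 60 and 179, ratio 1.21). Geometric means within sources were 2622 against 2639 bp in Zv9_ and 1896 against 1292 bp in linc- models. The Zv9_ difference was then nearly gone, and the linc- difference was not. The tails differed as well. A first intron of 50000 bp or more was found at 29 of 306 2-exon Zv9_ loci (9.48%) and at 4 of the 136 with more exons (2.94%), although 24 of those 136 (17.6%) had such an intron at some position. The total of all introns, which a 2-exon locus has only once, was 2490 bp in 2-exon Zv9_ loci against 17621.5 bp in those with more exons.

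The terminal exons showed the same dependence on source. The last exon of 2-exon loci was shorter over both sources, at 397 nt against 587 nt in loci with 3 or more exons (ratio 0.676). Within Zv9_ models the values were 342.5 and 417.5 nt (ratio 0.820), and within linc- models 801 and 691 nt (ratio 1.16), the opposite direction. For the first exon the values were 178.5 and 144 nt in Zv9_ models (ratio 1.24) and 219 and 244 nt in linc- models (ratio 0.898). The value over both sources, 187.5 against 193 nt, hid both. In each of these comparisons the medians differed by less than the distance between the quartiles. Spliced length was shorter in 2-exon loci within each source, at 584.5 against 787.5 nt in Zv9_ and 1024 against 1566 nt in linc- models. Single-exon loci, all linc-, were longer again, with a median of 1760 nt (n = 95). The last exon held a median of 65.0% of the spliced length in 2-exon Zv9_ loci and 78.9% in 2-exon linc- loci, against 55.4% and 56.2% in loci with more exons of the same sources. It is 1 of 2 exons in the former and 1 of 3 or more in the latter, so the exon number alone favours this direction.

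**Figure D5:**
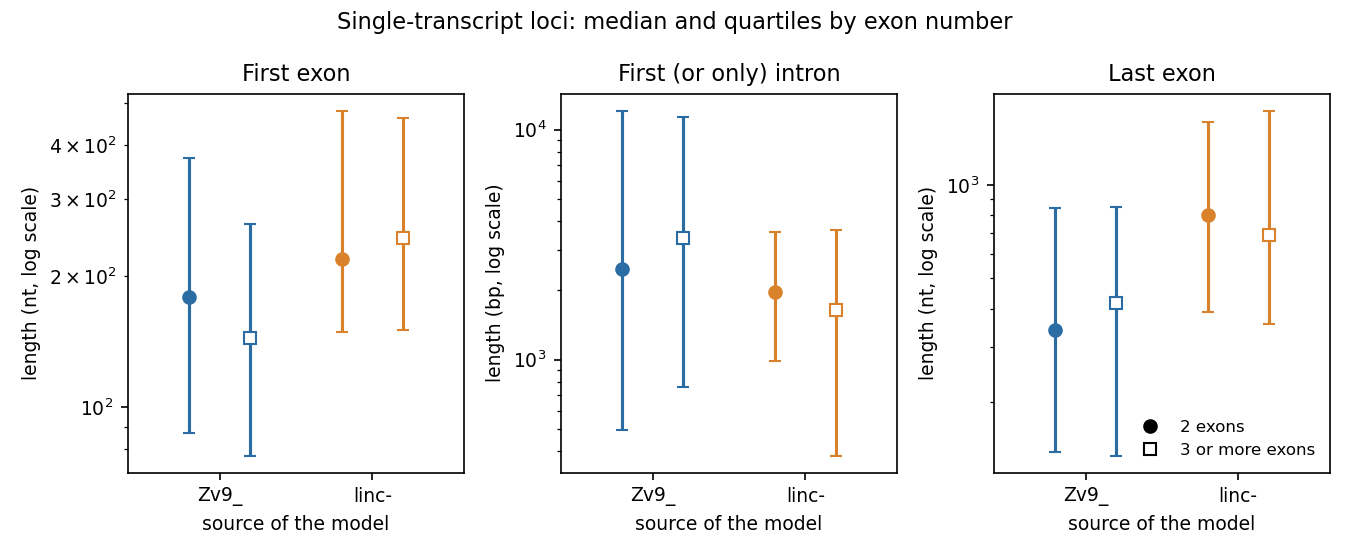
Median lengths, with bars to the quartiles, of the first exon (nt), the first or only intron (bp) and the last exon (nt) on log axes, for single-transcript loci of 2 exons (filled circles) and of 3 or more exons (open squares), in Zv9_ (306 and 136 loci) and linc- models (60 and 179). The order of circle and square is opposite in the sources for each of the 3 parts, and the quartiles overlap in every pair.

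The 7 loci that hold microRNA precursors, all Zv9_, shared a layout. MicroRNAs are short RNAs that lower the output of messenger RNAs, and their precursors are cut as hairpins from longer transcripts. Of 16 precursors in these loci, 15 lay wholly in the last exon, none touched the first exon and 1 touched the intron. In each of the 1014 loci the models were linked by shared exon bases, which a locus with 1 model meets by default. A hairpin wholly within the intron would share no exon base with the model around it. The loci as linked would thus not show such a hairpin, and these counts do not tell how often introns hold precursors. Whether such hairpins were left out of the loci was not tested. In XLOC_000292 on chromosome 1 the last exon of 1180 nt held 6 precursors of the mir-17 to mir-92 cluster, known for promoting proliferation, beginning 37 nt past the splice junction with mir17a-1 and continuing to mir92a-1 at 835 nt. In XLOC_016116 on chromosome 9 mir17a-2, mir18b and mir92a-2 began 66, 175 and 718 nt into a last exon of 3508 nt. The muscle precursors mir1-2 and mir133a-1 began 1665 and 3849 nt into the last exon of 4055 nt at XLOC_000230. At XLOC_013118 on chromosome 5 the red-cell precursor mir144 lay across the junction, with 80 nt in the last exon and 9 nt in the intron of 264 bp, and dre-mir-451a began 123 nt into that exon. The others began 39 nt (dre-mir-148), 47 nt (mir199-2a) and 318 nt (mir219-2) into the last exon. The last exon was the longer one at all 7, by 1.70 to 20.8 times, and at 199 of all 306 Zv9_ loci (65.0%). The median spliced length of the 7 was 1792 nt and their median intron 891 bp, against 584.5 nt and 2490 bp over all Zv9_ loci. The 7 loci were singled out by their RefSeq content and were not compared by a test. An exon that holds a whole precursor cannot be shorter than it, so this choice itself favours longer last exons and longer spliced models.

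Identifiers that begin with linc- carry a gene name, and 49 of the 60 names matched a symbol or synonym in RefSeq's table for the GRCz12tu assembly, all 49 of them protein-coding genes. On a list of developmental regulators, 3 of the 60 names were found. How many of all linc- loci in the catalogue have a name on that list was not counted. The model linc-sox3_1 at XLOC_003684 on chromosome 14 (33693090 to 33696501, minus strand), named after a transcription factor of neural progenitors, had exons of 205 and 376 nt around an intron of 2831 bp. The model linc-her4.2_1 at XLOC_009527 on chromosome 23 (21767244 to 21768616, plus strand), named after a transcriptional repressor downstream of Notch, had 65 and 695 nt around 613 bp. The model linc-prdm16_1 at XLOC_015478 on chromosome 8 (50251943 to 50254789, minus strand), named after a zinc finger regulator known in mammals for brown fat and blood stem cells, had 173 and 280 nt around 2394 bp. All 3 were shorter than the linc- median of 1024 nt, at 581, 760 and 453 nt. The model linc-slc6a4b_1, with 1 of the 5 shortest linc- introns (199 bp), is named after a serotonin transporter. So is linc-slc6a4a_1 at XLOC_004231, with an intron of 203 bp, a locus picked after its values were seen. The distance from each locus to the gene it is named after was not analysed here.

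The spans of 20 of the 366 loci (5.46%) overlapped another locus of the catalogue, at 17 of 306 Zv9_ loci (5.56%) and 3 of 60 linc- loci (5%). Spans free of overlap were found at 346 of the 366, and at 309 of the 315 single-transcript loci with 3 or more exons. Loci with 2 or more transcripts, which were among the overlapped loci, are left out of that comparison. The share over the whole catalogue was not computed, so whether 5.46% is high or low for it is not known. Among the 20, the overlap was with a locus on the same strand at 9 and on the opposite strand at 11. Another locus lay whole inside the only intron at just 2. One was XLOC_015315 on chromosome 8, whose intron of 244564 bp holds the opposite-strand locus XLOC_014937 of 2 linc-si:dkey-23c22.6 models. The other was XLOC_012129 on chromosome 4, where Zv9_00009710 (intron 12098 bp) holds XLOC_011805, itself a 2-exon locus of 270 nt on the opposite strand. Exons overlapped exons of an opposite-strand locus at 7 loci. Among these were linc-sox3_1, against a pair of Zv9_ models at XLOC_003395, and Zv9_00011602 at XLOC_012678, against the single-exon model linc-tbx2a_1, named after a T-box transcription factor. At 7 loci the overlap was with a same-strand locus and neither lay within an intron of the other. Zv9_00048216 and Zv9_00048217 on chromosome 21 were such a pair, sharing 1201 bp of span, with introns of 1874 and 1880 bp and spliced lengths of 334 and 318 nt. Zv9_00006769 at XLOC_011309 on chromosome 3 had the longest intron among these 7, 163072 bp, and shared 38390 bp of span with XLOC_011310. Zv9_00033168 at XLOC_003436 on chromosome 14, with an intron of 105767 bp, overlapped the linc- loci XLOC_003435 and XLOC_003438 by 5778 and 677 bp.

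Members of the list were found on all 25 chromosomes. They made up from 18.5% of the catalogue's loci on chromosome 18 (5 of 27) to 49.2% on chromosome 4 (31 of 63), and 63.6% on unplaced scaffolds (14 of 22, all Zv9_). By strand, 171 of the 306 Zv9_ loci were on the plus strand and 135 on the minus strand, against 23 and 37 of the 60 linc- loci.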

How the data were processed

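The deposited values are exon coordinates on Zv9 (danRer7), counted from 1 and belonging to no library. The other values were derived from them. Per the authors' deposited description, models of 2 earlier annotations were combined with RefSeq transcripts of the same loci. The tools named per the submitters' processing notes are bedtools, Bowtie2 and TopHat2. What grouped models into loci is not stated. Of 4540 exon records in 1425 transcripts, those of loci with 1 non-RefSeq transcript of 2 exons were kept, exons were ordered by strand, and lengths include both end bases. Medians, quartiles, shares of pairs and Spearman's rank correlations were computed with Python 3.11.15, numpy 2.4.6, pandas 2.3.3 and scipy 1.17.1, and figures with matplotlib 3.10.9. The structure code was tested on simulated models. Named loci were the extremes of each length by source, those nearest to the median intron, and those with RefSeq models, a locus inside the intron or a regulator's name. A further alternative and the other loci named for overlap were chosen after their values were seen. Members, lists and comparisons were chosen with earlier results of these data known. RefSeq's GRCz12tu table gave names only. No genome sequence was used, so no splice sites or sequences are shown. No library was used.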

Additional observations from a re-analysis of the deposited data

How the results depend on the processing

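The 17 results were recomputed under 8 alternatives, and a further one was added after the data had been seen. Ratios of medians counted as unchanged when they changed by at most 25% of the smaller value, rank correlations within 0.1, and medians and shares within their 95% binomial interval. That interval treats loci as a sample, which a fixed list is not, and served only as a yardstick for these labels. Of 133 values, 17 could not change because no locus had an intron under 50 bp to leave out, and 7 because they do not use the order of exons. Of the other 109, 96 were unchanged, 11 moved and 2 turned their direction. Little change was possible where nearly all loci were kept, as with 357 of 366 after loci that hold RefSeq models were left out. A ratio counted as unchanged could still come close to 1. With every locus that has any 2-exon transcript, the Zv9_ to linc- ratio went from 1.26 to 1.03 for the intron and from 0.815 to 0.940 for the first exon. Exons taken in genome order whatever the strand gave a median first exon of 271 nt, a last exon of 258.5 nt, a ratio of 0.989 (turned), a longer last exon at 49.7% of loci, a rank correlation between exons of 0.12, and Zv9_ to linc- ratios of 0.503 (first) and 0.653 (last). Without exons under 50 nt the rank correlation between exons was 0.34. With geometric means the only intron was 1.41 times the first intron of loci with more exons. Without overlapping loci the share with a locus inside the intron was 0%, by construction. Within the linc- range of spliced length, Zv9_ to linc- ratios were 1.17 for the first exon (turned), 0.675 for the last and 0.877 for spliced length. No paired analysis was possible because no library entered. The catalogue holds no read support, so models cut short at an end cannot be told apart from complete ones.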

Other observations

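Exon and intron lengths were divided by 3 to see whether a remainder stood out. Over the 366 loci, first exons left remainders of 0, 1 and 2 at 129, 120 and 117 loci, last exons at 122, 118 and 126, and introns at 129, 136 and 101. Among Zv9_ loci the first exon counts were 101, 107 and 98, and among the 60 linc- loci 28, 13 and 19. The intron counts were 102, 118 and 86 among Zv9_ loci, and 27, 18 and 15 among linc- loci. No test was run on these counts.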
